A study of Homo sapiens with 4 samples.

Results

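Expression of 9 genes of retinoid and vitamin D metabolism was examined in 2 human lung adenocarcinoma cell lines, A549 and H1993. The genes were DHRS9, RDH10, DHRS3, AOX1, RARB, CYP26A1, CYP26B1, VDR and CYP24A1, 9 of the 43622 genes in the deposited tables. They were chosen by name, with their read counts and TPM compared across line and culture already known. Their differences between libraries are therefore given as a description, with no test.

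The study set spheroid culture, which its design text equates with cancer stem cells, against adherent culture. The libraries were A549 spheroid, A549 adherent, H1993 spheroid and H1993 adherent, 1 library of each, and there were no replicates. The labels call all 4 lung epithelial cells and name no medium, serum, genetic change or time in culture. The design text mentions inhibitors and shRNA, and the labels of these 4 libraries name neither. All lung epithelial results here rest on 2 established tumour lines, and each culture of each line is a single sample.

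Retinol is taken up into cells, bound or stored as esters, and oxidised through retinal to retinoic acid. Retinoic acid binds nuclear receptors that pair with RXR partners, and these receptors raise the expression of enzymes that remove it. Vitamin D works in a parallel way: calcitriol binds the vitamin D receptor, VDR, and the gene for its inactivating enzyme, CYP24A1, is among the strongest known targets of that receptor. In lung epithelium, retinoids are known for their part in development and in keeping airway cells from squamous change.

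Exonic reads numbered between 15331121 and 17681746 per library, so a floor of 3 reads corresponded to 0.170 to 0.196 CPM, reads scaled to a common library total. Reads copied by PCR were not separated from distinct molecules, and every interval and floor below covers counting error only. The epithelial markers EPCAM, CDH1, KRT7, KRT8, KRT18 and KRT19 all had 10 or more reads in each library. Markers of differentiated lung cells were near 0, with SFTPA1 and SCGB1A1 at 0 reads in all 4 libraries. Summed TPM of 6 fibroblast markers was 6.23 to 33.2, that of 4 endothelial markers 0.366 to 3.22, and that of 6 blood cell markers 5.65 to 22.9. HBB had 0 reads in all 4 libraries, and PTPRC had 45 reads in H1993 spheroids and 0 in the others.

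One library lay nearer to the other line in the same culture than to its own line. The library labelled H1993 adherent was nearer to A549 adherent than to H1993 spheroid: 13.3% of 15273 genes lay at least 2-fold from A549 adherent, against 35.7% from H1993 spheroid. Across genes, which are not independent replicates, the correlation of log2 levels was 0.947 with A549 adherent and 0.846 with H1993 spheroid. H1993 spheroids and A549 spheroids had 37.8% of genes 2-fold apart. H1993 spheroids over this library are called the H1993 pair as labelled. H1993 spheroid over A549 spheroid, which does not use it, is given for the 9 genes and for most other named genes. Single genes, named after their values were seen, went both ways. KLK6 had 113 reads in this library and 1962 in H1993 spheroids, against 1 in A549 adherent cells and 0 in A549 spheroids. G0S2 had 0 reads in this library and in H1993 spheroids, against 45 in A549 adherent cells and 59 in A549 spheroids. ALDH1A1 had 131387 reads in this library and 4059 in H1993 spheroids, against 168936 in A549 adherent cells and 118358 in A549 spheroids. Whether the label is right was not tested.

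Folds are given as log2 of TMM-scaled exonic reads with a prior count of 2, followed by the exact 95% counting interval of the pair of counts. A gene was called when it passed the filter on low counts, its fold reached 2 and the counting interval did not include 0 on the log2 scale. All 9 genes passed the filter, CYP26A1 through the adherent libraries alone. Of the 9 genes, 8 were called in A549 spheroids over A549 adherent cells, 2 higher and 6 lower, where the rule called 22.7% of all genes tested, 12.4% higher and 10.3% lower. The median log2 fold of the 9 genes was -1.497, beside 0.00 over all genes tested. In the H1993 pair as labelled 7 were called, 2 higher and 5 lower, where the rule called 35.0% of all genes, 17.0% higher and 18.0% lower. The median was -3.56, beside 0.00 over all genes tested. It was -2.75 with CYP26A1 at its bound, the fold with its 0 reads set at the floor of 3 reads. These contrasts chose the genes, so nothing is read from the counts.

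**Figure D1:**
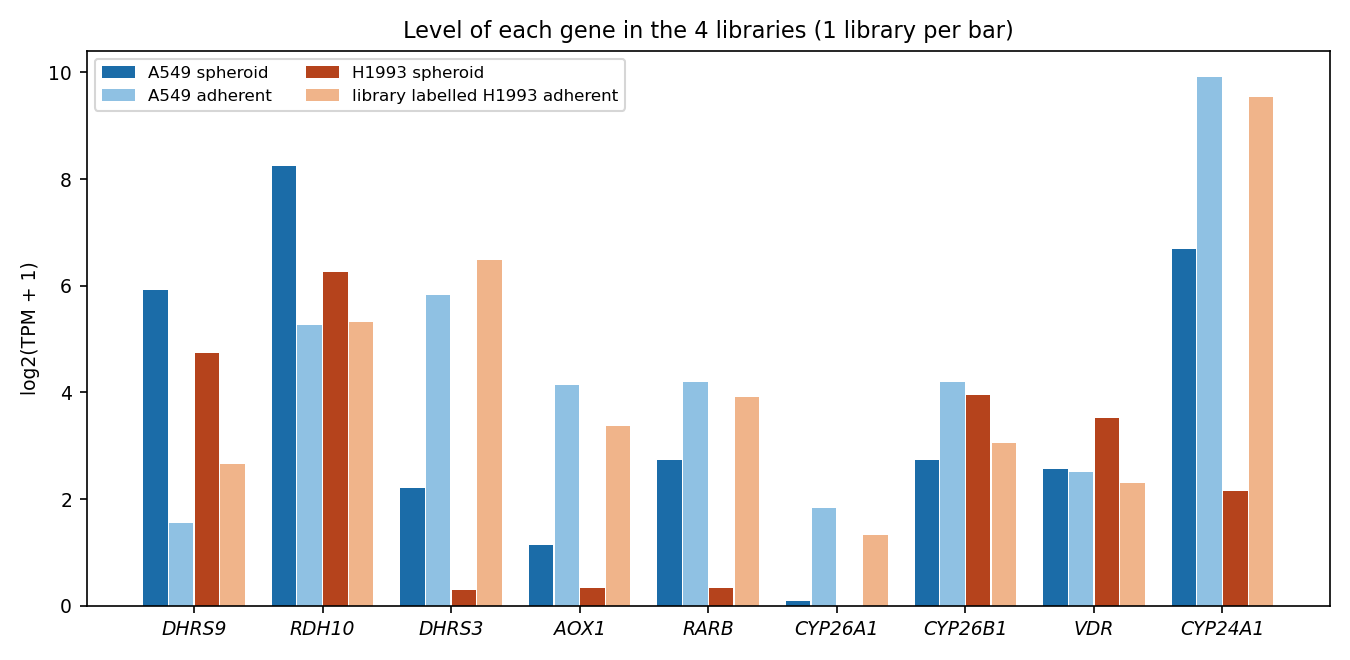
Level of each of the 9 genes as log2(TPM + 1), 1 bar per library and no error bars because each group is a single library. DHRS9 and RDH10 stand higher in both spheroid bars than in both adherent bars, while DHRS3, AOX1, RARB, CYP26A1 and CYP24A1 stand lower in both, with CYP24A1 at 3.42 TPM in H1993 spheroids and 961 TPM in A549 adherent cells.

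Among the enzymes that oxidise retinol, DHRS9 and RDH10 were higher in spheroids. DHRS9 (ENSG00000073737), a short-chain dehydrogenase that oxidises retinol to retinal, lies on hg38 chr2:169064789-169096167, plus strand. It had 1164 reads in A549 spheroids and 33 in A549 adherent cells, and 410 in H1993 spheroids and 102 in the library labelled H1993 adherent. Both spheroid libraries were above both adherent ones. Its log2 fold was 4.997 (4.58 to 5.62) in A549, where it ranked 36 from the highest of 15273 genes. The log2 fold was 2.17 (1.87 to 2.52) in the H1993 pair as labelled. Its level in TPM was 59.8 in A549 spheroids, 1.91 in A549 adherent cells, 25.6 in H1993 spheroids and 5.33 in the library labelled H1993 adherent.

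RDH10 (ENSG00000121039), the main retinol dehydrogenase of the embryo in mice, lies on chr8:73294612-73325281, plus strand. It had 8312 reads in A549 spheroids and 919 in A549 adherent cells, and 1715 in H1993 spheroids and 1053 in the library labelled H1993 adherent. A549 spheroids stood far above the other libraries, and both adherent libraries were at about the same level. At 301 TPM, RDH10 ranked 358 from the top of all genes in A549 spheroids. The log2 fold was 3.11 (3.02 to 3.21) in A549 and 0.89 (0.776 to 0.999) in the H1993 pair as labelled, where RDH10 was not called. In the order of levels of the 9 genes, the adherent libraries were neighbours that did not differ beyond counting error for RDH10, CYP26A1 and VDR. The start of RDH10 overlaps RPL7, a ribosomal protein gene on the opposite strand with 19209, 14158, 30482 and 15507 reads in A549 spheroid, A549 adherent, H1993 spheroid and the library labelled H1993 adherent. The sources do not state whether counting used strand, so shared reads cannot be told apart there. Exon junction reads of RDH10 gave a log2 fold of 2.93 (2.69 to 3.22) in A549, from 1049 reads in spheroids and 130 in adherent cells, and 0.66 (0.35 to 0.98) in the H1993 pair as labelled.

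DHRS3 and AOX1 were lower in spheroids of both lines. DHRS3 (ENSG00000162496) reduces retinal back to retinol, the reverse of the RDH10 step, and is a known retinoic acid induced gene. It lies on chr1:12567910-12617731, minus strand. It had 57 reads in A549 spheroids and 774 in A549 adherent cells, and 3 in H1993 spheroids and 1363 in the library labelled H1993 adherent. Spheroids and adherent cells did not overlap, and H1993 spheroids were at the floor of 3 reads. The log2 fold was -3.78 (-4.24 to -3.44) in A549. For the H1993 pair as labelled it was -7.94 (-10.92 to -7.09), the lowest of all 15273 genes tested, and it rests on those 3 reads. Levels were 3.62 TPM in A549 spheroids and 55.4 TPM in A549 adherent cells, against 0.232 TPM in H1993 spheroids and 88.0 TPM in the library labelled H1993 adherent. The ratio of RDH10 to DHRS3 in TPM was 83.2 in A549 spheroids and 0.677 in A549 adherent cells. It was 326 in H1993 spheroids and 0.441 in the library labelled H1993 adherent.

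AOX1 (ENSG00000138356), aldehyde oxidase, a molybdenum enzyme that can oxidise retinal to retinoic acid, lies on chr2:200585868-200677064, plus strand. It had 35 reads in A549 spheroids and 426 in A549 adherent cells, and 6 in H1993 spheroids and 264 in the library labelled H1993 adherent. The spheroid libraries were both below the adherent ones, and the log2 fold was -3.59 (-4.21 to -3.17) in A549 and -4.89 (-6.74 to -4.13) in the H1993 pair as labelled. In TPM, AOX1 stood at 1.21 in A549 spheroids, 16.7 in A549 adherent cells, 0.253 in H1993 spheroids and 9.32 in the library labelled H1993 adherent.

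**Figure D2:**
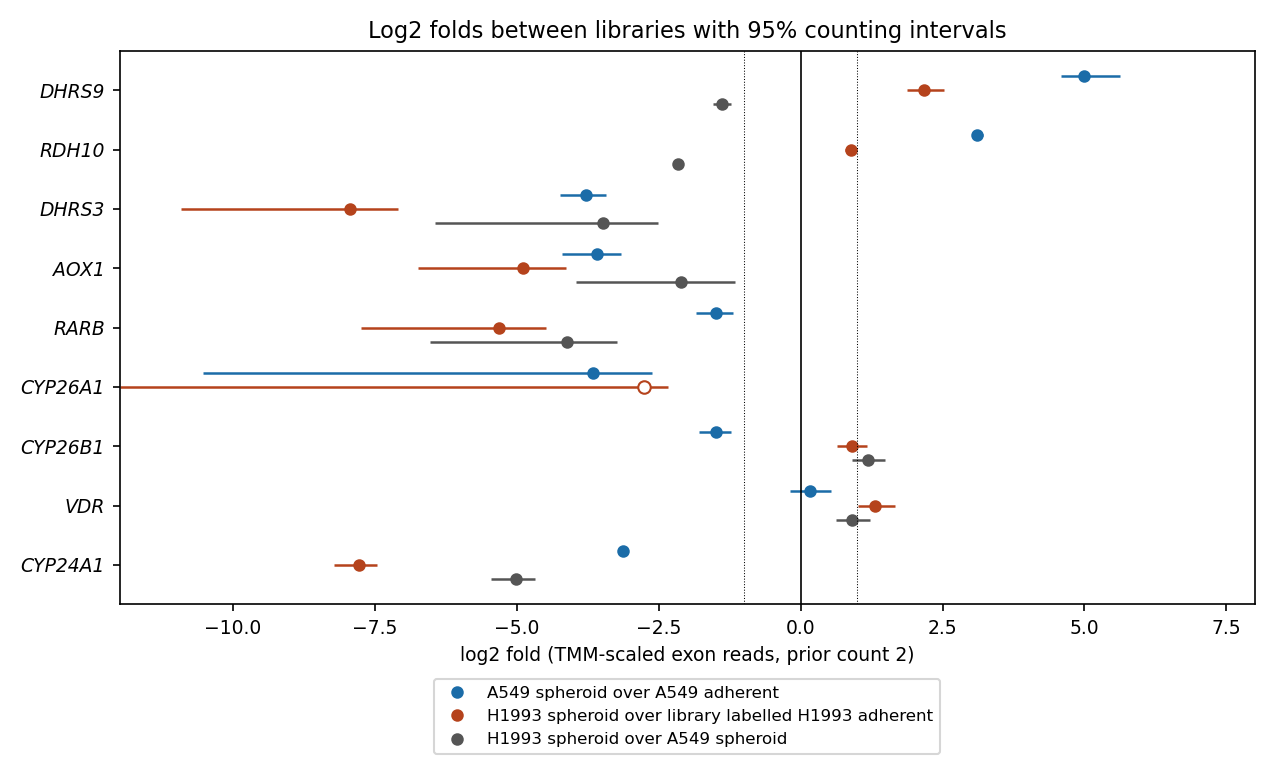
Log2 folds of the 9 genes (x axis) for A549 spheroid over A549 adherent, H1993 spheroid over the library labelled H1993 adherent, and H1993 spheroid over A549 spheroid, with bars for the exact 95% counting interval and dotted lines at a fold of 2. The open circle is the bound for CYP26A1, which had 0 reads in H1993 spheroids, its bar is open to the left, and no point is drawn for its 0 reads against 1 read between the spheroid libraries; DHRS9 at 4.997 in A549 and DHRS3 at -7.94 in the H1993 pair as labelled mark the ends.

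RARB and CYP26A1 are textbook targets of retinoic acid, and their promoters are shown because each held a DR5 element, the direct repeat with a spacer of 5 bases to which retinoic acid receptors bind. Half-sites were AGGTCA as the first form, AGTTCA as the second, GGGTCA as the third and GGTTCA as the fourth, and any pair of them was searched in direct repeat on both strands of the RefSeq promoters of GRCh38.p14, 250 bases before to 50 bases after each start site. DR5 repeats were in 31 of 35116 promoters, 0.0883% of all. The table had 15 promoters for 6 of the 9 genes (AOX1, CYP26A1, CYP26B1, DHRS3, DHRS9 and RARB), and 2 of the 15 held a DR5. The RARB window is chr3:25428013-25428312, plus strand, within the gene, and its repeat begins 53 bases before the start site. The CYP26A1 window is chr10:93073643-93073942, plus strand, and its repeat begins 90 bases before the start site and reads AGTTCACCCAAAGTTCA on the minus strand. Capitals mark the repeat.
RARB: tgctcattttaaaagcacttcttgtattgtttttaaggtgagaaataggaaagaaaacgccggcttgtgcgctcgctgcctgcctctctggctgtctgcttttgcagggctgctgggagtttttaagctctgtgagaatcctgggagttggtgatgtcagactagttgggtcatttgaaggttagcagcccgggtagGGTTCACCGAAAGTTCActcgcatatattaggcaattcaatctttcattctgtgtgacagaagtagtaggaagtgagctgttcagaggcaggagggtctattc
CYP26A1: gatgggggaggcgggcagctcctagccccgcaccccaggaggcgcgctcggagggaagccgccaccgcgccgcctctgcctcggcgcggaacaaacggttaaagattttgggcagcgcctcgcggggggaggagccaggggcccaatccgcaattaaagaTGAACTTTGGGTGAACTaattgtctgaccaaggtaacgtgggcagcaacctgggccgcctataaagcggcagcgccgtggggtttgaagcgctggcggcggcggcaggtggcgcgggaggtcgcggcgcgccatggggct
The same half-sites with a spacer of 3 bases, the DR3 arrangement bound by the vitamin D receptor, were in 26 of 35116 promoters and in 0 of the 15. No promoter of CYP24A1, RDH10 or VDR was available, so the DR3 search did not cover the vitamin D genes. A match is a run of letters and does not show that a receptor was bound.

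RARB (ENSG00000077092), the retinoic acid receptor beta, spans chr3:25174332-25597932, plus strand. It had 108 reads in A549 spheroids and 294 in A549 adherent cells, and 4 in H1993 spheroids and 265 in the library labelled H1993 adherent. The adherent libraries lay close together and both spheroid libraries lay below them, H1993 spheroids near the floor. The log2 fold was -1.49 (-1.84 to -1.19) in A549 and -5.32 (-7.75 to -4.49) in the H1993 pair as labelled. Levels were 5.63 TPM in A549 spheroids, 17.3 in A549 adherent cells, 0.254 in H1993 spheroids and 14.1 in the library labelled H1993 adherent. The end of RARB overlaps TOP2B on the opposite strand by a few bases, and TOP2B had 1935 reads in A549 spheroids, 3097 in A549 adherent cells, 1484 in H1993 spheroids and 3752 in the library labelled H1993 adherent. Exon junction reads of RARB numbered 22 in A549 spheroids and 77 in A549 adherent cells, and 0 in H1993 spheroids and 74 in the library labelled H1993 adherent, so the lower spheroid counts were also there in spliced reads.

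CYP26A1 (ENSG00000095596, chr10:93073475-93077890, plus strand), the cytochrome P450 that clears retinoic acid and is strongly induced by it, was low in every library. It had 1 read in A549 spheroids and 35 in A549 adherent cells, and 0 in H1993 spheroids and 23 in the library labelled H1993 adherent. The log2 fold in A549 was -3.67, with a counting interval of -10.54 to -2.62 that reflects the single read. With its 0 reads in H1993 spheroids set at the floor of 3 reads, CYP26A1 was 6.75-fold lower there than in the library labelled H1993 adherent. The counting interval reaches down to a 5.06-fold difference. Its highest level was 2.56 TPM, in A549 adherent cells.

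CYP26B1 (ENSG00000003137, chr2:72129238-72148038, minus strand), the second retinoic acid clearing enzyme of this family, had exonic folds of opposite sign in the 2 lines. It had 146 reads in A549 spheroids and 398 in A549 adherent cells, and 308 in H1993 spheroids and 187 in the library labelled H1993 adherent. Spheroids were thus lower than adherent cells in A549, at a log2 fold of -1.497 (-1.79 to -1.23), and higher in the H1993 pair as labelled, at 0.90 (0.64 to 1.17), which was not called. Junction reads were few, at -0.60 (-1.93 to 0.49) in A549 and 0.60 (-0.47 to 1.88) in the H1993 pair as labelled. Intronic reads gave -1.82 (-2.98 to -1.07) in A549 and 0.28 (-0.56 to 1.16) in the H1993 pair as labelled. Of these intervals only the intronic one in A549 excludes no change. The difference between the 2 exonic log2 folds was not tested. In TPM, CYP26B1 stood at 5.61 in A549 spheroids, 17.2 in A549 adherent cells, 14.4 in H1993 spheroids and 7.31 in the library labelled H1993 adherent.

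For vitamin D, CYP24A1 was lower in spheroids of both lines while its receptor was not. VDR, the nuclear receptor that binds calcitriol (ENSG00000111424, chr12:47841537-47943048, minus strand) had 145 reads in A549 spheroids and 123 in A549 adherent cells, and 252 in H1993 spheroids and 114 in the library labelled H1993 adherent. H1993 spheroids were highest. Among the other 3 libraries, neighbours in the order of levels did not differ beyond their counting intervals. The log2 fold was 0.17 (-0.18 to 0.53) in A549. It was 1.31 (1.003 to 1.66) in the H1993 pair as labelled, where VDR was called. Junction reads of VDR in the H1993 pair as labelled were 21 in spheroids and 15 in the adherent library, a log2 fold of 0.60 with an interval of -0.36 to 1.73 that includes no change.

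CYP24A1 (ENSG00000019186, chr20:54153449-54173973, minus strand) encodes the mitochondrial hydroxylase that inactivates calcitriol. It had 2092 reads in A549 spheroids and 17566 in A549 adherent cells, and 58 in H1993 spheroids and 15017 in the library labelled H1993 adherent. Levels were 101 TPM in A549 spheroids and 961 TPM in A549 adherent cells, and 3.42 TPM in H1993 spheroids and 741 TPM in the library labelled H1993 adherent. Both adherent libraries were far above both spheroid ones, and A549 spheroids were well above H1993 spheroids. By TPM, CYP24A1 ranked 1287 in A549 spheroids and 91 in A549 adherent cells, and 12359 in H1993 spheroids and 115 in the library labelled H1993 adherent. The log2 fold was -3.13 (-3.20 to -3.07) in A549 and -7.79 (-8.23 to -7.46) in the H1993 pair as labelled, next to the lowest of all genes tested. In bulk RNA of this kind, fewer cells that express a gene and less RNA per cell cannot be told apart.

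The ratio of CYP24A1 to VDR in TPM was 20.6 in A549 spheroids and 204 in A549 adherent cells, and 0.329 in H1993 spheroids and 188 in the library labelled H1993 adherent. Of the summed TPM of the 9 genes, CYP24A1 made up 21.0% in A549 spheroids and 86.2% in A549 adherent cells. Its share was 2.63% in H1993 spheroids and 81.5% in the library labelled H1993 adherent. CYP24A1 was thus the most abundant of the 9 transcripts per length in both adherent libraries, while RDH10 was so in both spheroid libraries.

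Reads in introns were set beside reads in exons, since intronic reads come largely from transcripts not yet spliced. CYP24A1 was rich in intronic reads. They made up 35.1% (Clopper-Pearson 33.5 to 36.8) of its gene reads in A549 spheroids and 45.4% (44.9 to 46.0) in A549 adherent cells. The shares were 24.7% (15.6 to 35.8), from 19 of 77 reads, in H1993 spheroids and 42.0% (41.4 to 42.6) in the library labelled H1993 adherent. Among genes with at least 1000 gene reads, CYP24A1 ranked 125 of 4022 from the highest share in A549 spheroids, 70 of 3996 in A549 adherent cells and 118 of 4348 in the library labelled H1993 adherent, where the medians were 5.19%, 6.91% and 7.48%. Over all genes the intronic share was 8.43% in A549 spheroids, 10.1% in A549 adherent cells, 11.6% in H1993 spheroids and 10.7% in the library labelled H1993 adherent.

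The intronic reads of CYP24A1 differed more between cultures than its exonic reads. In A549 the log2 fold was -3.75 (-3.84 to -3.67) for introns, -3.13 for exons and -2.93 (-3.05 to -2.82) for junctions. Introns gave -8.84 (-9.71 to -8.33) in the H1993 pair as labelled, from 19 reads in spheroids and 10860 in the adherent library, and junctions gave -7.58. DHRS3 had 4 intronic reads in A549 spheroids and 311 in A549 adherent cells, a log2 fold of -5.76 (-8.23 to -4.97), lower than in exons. In the H1993 pair as labelled the DHRS3 intronic fold was -7.05 (-11.05 to -6.14), from 2 reads in spheroids and 581 in the adherent library. The exonic fold of -7.94 lies within that interval, so the 2 do not differ beyond counting error. AOX1 introns gave -1.91 (-3.80 to -0.93) in A549, from 6 reads in spheroids and 27 in adherent cells. They gave -2.00 (-4.95 to -0.80) in the H1993 pair as labelled, from 3 reads in spheroids and 20 in the adherent library. Both were less negative than the exonic folds, -3.59 (-4.21 to -3.17) and -4.89 (-6.74 to -4.13), but the intervals overlap in both pairs. For the genes higher in A549 spheroids the intronic folds were smaller than the exonic ones. The DHRS9 log2 fold was 3.62 (3.04 to 4.60) in introns and 4.56 in junctions, and that of RDH10 was 2.44 (2.12 to 2.85) in introns. The DHRS9 intronic interval just overlaps its exonic one of 4.58 to 5.62. How these reads divide between unspliced transcripts and other sources was not tested.

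**Figure D3:**
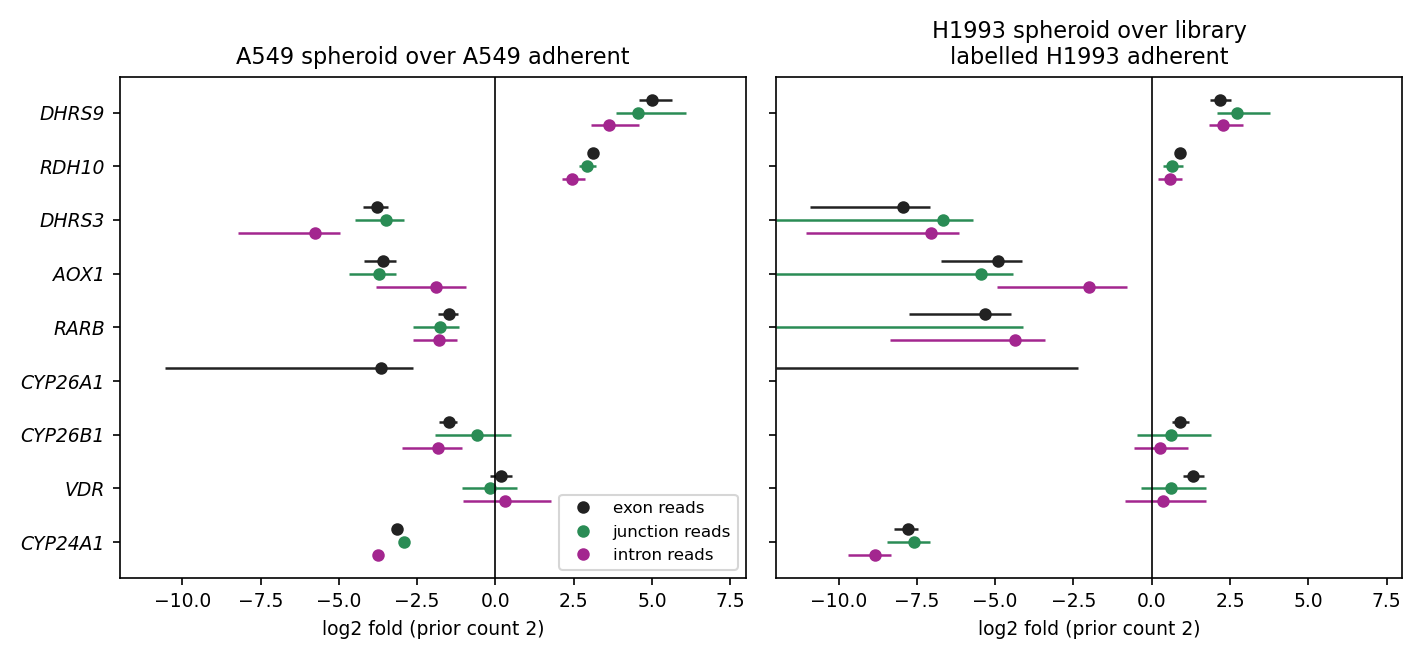
Log2 folds of exonic, exon junction and intronic reads (x axis, exact 95% counting intervals as bars) for each gene in A549 and in the H1993 pair as labelled. The 3 kinds of read point the same way for DHRS9, RDH10, DHRS3, AOX1, RARB and CYP24A1 in both pairs; where 1 library had 0 reads only the interval is drawn, and bars that reach the left edge run on beyond it.

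The chromosomal surroundings were examined to see whether whole regions differed alongside these genes. Each gene was set beside the 40 nearest genes that passed the filter, 20 on each side. In A549 the median log2 fold of the neighbours lay between -0.33, around DHRS3, and 0.23, around RARB. AOX1 lay below all 40 of its neighbours and DHRS9 above all 40, while DHRS3 and CYP24A1 each had 39 of 40 neighbours above them. In the H1993 pair as labelled, DHRS3, AOX1, RARB and CYP24A1 each lay below all 40 neighbours. The median around CYP24A1 was 0.63, in the opposite direction to the gene, and around VDR, itself higher, it was -0.73. The named genes were chosen with their folds in both pairs known, so nothing is read from where they lay among their neighbours. The medians describe the neighbours alone. Copy number was not measured here.

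**Figure D4:**
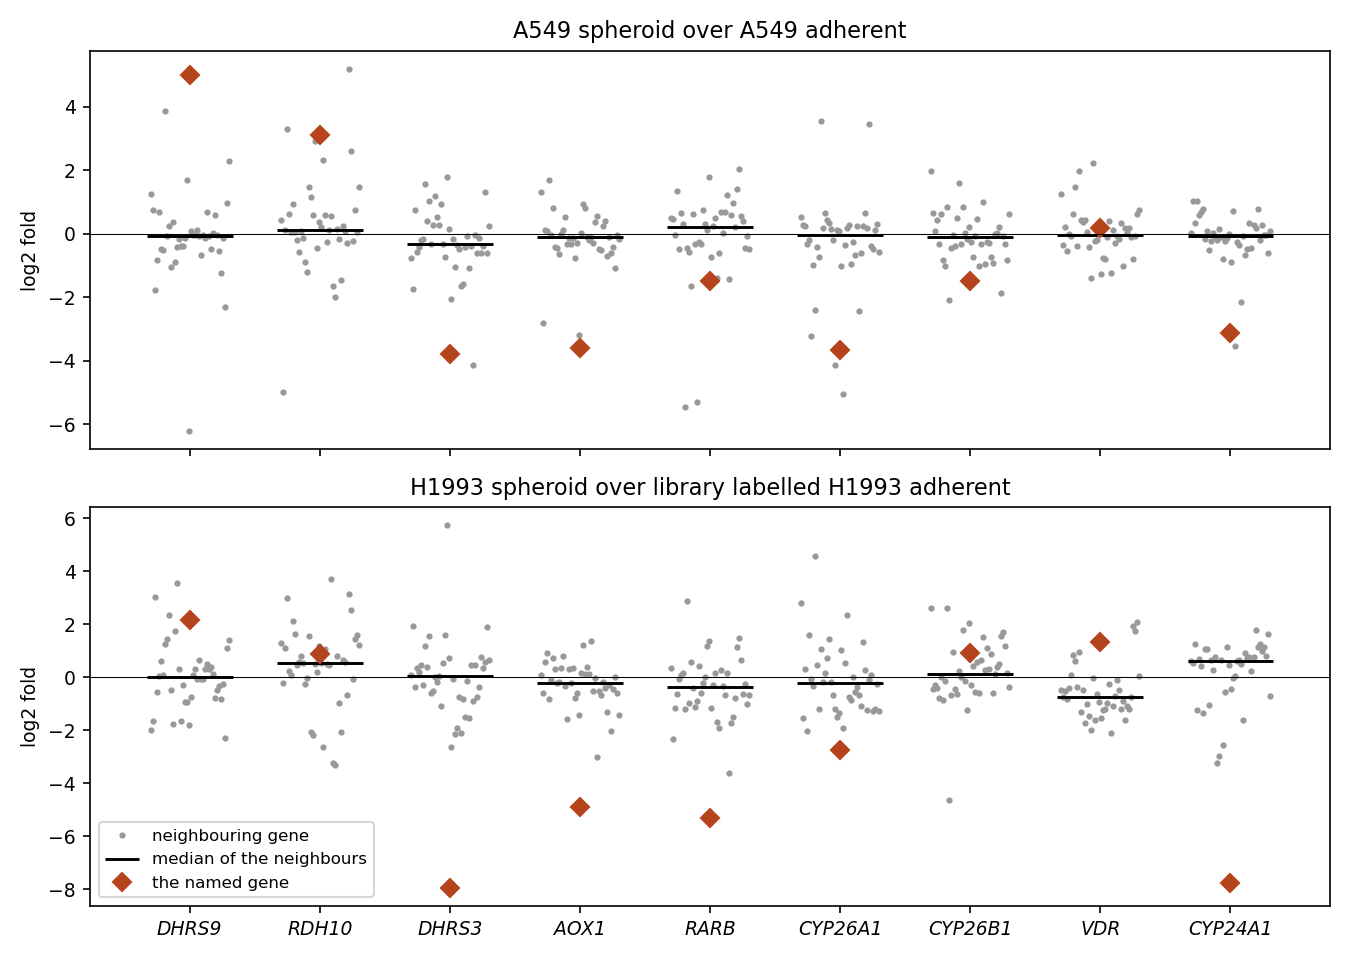
Log2 fold (y axis) of each of the 9 genes (diamonds) and of the 40 genes nearest to it on its chromosome (dots, median as a bar), in A549 above and in the H1993 pair as labelled below. In the lower panel CYP24A1 at -7.79 and DHRS3 at -7.94, genes chosen with these folds known, lie under every neighbour. CYP26A1 is drawn at its bound there.

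Between the lines, H1993 spheroids were lower than A549 spheroids for 6 of the 9 genes and higher for 1, where the rule called 37.1% of all genes tested, 18.0% higher and 19.1% lower. The median log2 fold was -2.12, or -2.14 without CYP26A1, which had 0 reads in H1993 spheroids and 1 in A549 spheroids and gets no fold, beside 0.01 over all genes tested. CYP24A1 had the largest difference, a log2 fold of -5.01 (-5.46 to -4.68). RARB followed at -4.11 (-6.54 to -3.24) and DHRS3 at -3.48 (-6.45 to -2.51). RDH10 stood at -2.16 (-2.24 to -2.08), AOX1 at -2.12 (-3.97 to -1.16) and DHRS9 at -1.38 (-1.55 to -1.22). CYP26B1 was higher in H1993 spheroids, at 1.18 (0.91 to 1.49), and VDR at 0.91 (0.61 to 1.22) was not called. H1993 spheroids therefore held the least DHRS3, AOX1, RARB and CYP24A1 of any library.

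The adherent libraries differed less. In the library labelled H1993 adherent over A549 adherent, 2 of the 9 genes were called, 1 higher and 1 lower, where the rule called 12.4% of all genes, 6.94% higher and 5.49% lower. The median log2 fold was -0.28, beside 0.00 over all genes tested. DHRS9 was higher, at 1.45 (0.92 to 2.11), and CYP26B1 lower, at -1.21 (-1.48 to -0.96). CYP24A1 differed by a log2 fold of -0.36 (-0.39 to -0.32), DHRS3 by 0.69 (0.56 to 0.82) and RDH10 by 0.07. The root mean square log2 difference over the 9 genes was 0.776 in this pair, against 4.68 in the H1993 pair as labelled, 3.16 in A549 and 2.74 between the spheroid libraries. Over all genes tested the same measure was 0.835, 1.45, 1.16 and 1.62. The 9 genes were chosen with their levels across line and culture known, so nothing is read from this comparison. Since this library stands near A549 adherent as a whole, its likeness to A549 in these genes adds no separate observation.

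Scaled levels of the spheroid libraries were both above or both below the adherent ones for 8 of the 9 genes, where 43.2% of all genes tested had no such overlap. DHRS9, RDH10 and VDR were above (20.8% of all genes) and DHRS3, AOX1, RARB, CYP26A1 and CYP24A1 below (22.4%). For VDR the A549 difference, 0.17 (-0.18 to 0.53), was within counting error. CYP26A1 passed the filter through the adherent libraries alone. The 9 genes were chosen on these contrasts, so nothing is read from the count. A fit over both lines with culture and line as terms leaves 1 residual degree of freedom. With edgeR's quasi-likelihood test it called 0 of 15273 genes at an adjusted p of 0.05, 0% of all, with 1258 genes at an unadjusted p under 0.05 and a smallest adjusted p of 0.264. DESeq2 with the same terms called 591 of 14680 genes, or 4.03%. No p-value is given for the 9 genes, since their choice rests on these contrasts.

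The genes whose pattern over the 4 libraries was most like DHRS3 and CYP24A1 were looked for among 12406 genes with at least 100 reads in 1 library, by root mean square distance between centred log2 levels. CYP24A1 was the nearest of all to DHRS3, at 0.685, followed by ATP10A at 0.769, MMP24 at 0.843, ELOVL2 at 0.975 and AOX1 at 1.08. RARB came at rank 15, with a distance of 1.29. Nearest to CYP24A1 was MMP24, at 0.540, then DHRS3, NRP2 at 0.733, ATP10A at 0.751 and MMP7 at 1.04. MMP24 had 219 reads in A549 spheroids and 1797 in A549 adherent cells, and 10 in H1993 spheroids and 1048 in the library labelled H1993 adherent. The 4 libraries hold little information on likeness, and the distances are a description. DHRS3, CYP24A1, AOX1 and RARB were chosen with these levels known, so nothing is read from their nearness to each other.

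The rest of both pathways was counted in 8 lists that named 95 symbols outside the 9 genes, of which 94 were in the tables and 60 passed the filter. In A549, 8 were called higher and 8 lower in spheroids, 26.7% of the 60 beside 22.7% of all genes tested, and the median log2 fold was 0.05. For the H1993 pair as labelled 11 were higher and 19 lower, 30 of the 60, where 35.0% of all genes were called, with a median of -0.29. In H1993 spheroids over A549 spheroids 9 were higher and 23 lower, 53.3% beside 37.1%, with a median of -0.48. The A549 share was close to that of all genes.

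In the list of retinoid uptake, binding and storage, 8 of 12 genes passed the filter. In A549 spheroids 0 were higher and 3 lower, 37.5% called beside 22.7% of all genes tested. In the H1993 pair as labelled 4 were higher and 3 lower, 87.5% beside 35.0%. STRA6, the cell surface receptor that takes up retinol from its carrier and a retinoic acid induced gene, was lower in both. It had 278 reads in A549 spheroids and 1407 in A549 adherent cells, a log2 fold of -2.39 (-2.59 to -2.22), and 241 in H1993 spheroids and 1822 in the library labelled H1993 adherent, a log2 fold of -2.73 (-2.93 to -2.54). Spheroids of the 2 lines were close, at -0.09 (-0.34 to 0.17). CRABP2, which carries retinoic acid to its receptors, had 62 reads in A549 spheroids and 103 in A549 adherent cells, but 3003 in H1993 spheroids and 220 in the library labelled H1993 adherent. Its log2 fold was -0.78 in A549, 3.94 in the H1993 pair as labelled and 5.67 between the spheroid libraries. FABP5, a fatty acid binding protein that can also carry retinoic acid, stood at -1.18 in A549 and 1.74 in the H1993 pair as labelled. RBP4, the retinol carrier of plasma, stood at 0.18 in A549 and 2.35 in the H1993 pair as labelled. Named after its values were seen, LRAT, which makes retinyl esters for storage, had 13 reads in H1993 spheroids and 2 in the library labelled H1993 adherent, a log2 fold of 2.03 (0.74 to 6.07). SCARB1, a scavenger receptor that takes up carotenoids and also named after its values were seen, stood at -1.07 in the H1993 pair as labelled. Between the spheroid libraries 2 genes of the list were higher in H1993 and 2 lower, with FABP5 at 2.45, RBP4 at 0.51, LRAT at 0.10 and SCARB1 at -1.15.

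Of the other retinol and retinal oxidoreductases 14 of 22 passed the filter. In A549 spheroids 3 were higher and 1 lower, 28.6% called beside 22.7% of all genes tested. In the H1993 pair as labelled 2 were higher and 6 lower, 57.1% beside 35.0%. SDR16C5, a retinol dehydrogenase of the short-chain family, was higher in both, with 102 reads in A549 spheroids and 12 in A549 adherent cells and 583 in H1993 spheroids and 27 in the library labelled H1993 adherent. The log2 folds were 2.84 (2.16 to 4.02) and 4.51 (4.06 to 5.23). AKR1B10, an aldo-keto reductase that reduces retinal, stood at 1.38 in A549 and -1.29 in the H1993 pair as labelled. RDH5, a retinol dehydrogenase best known from the eye, stood at 1.32 in A549 and -1.58 in the H1993 pair as labelled. AKR1C3, a relative of AKR1B10 whose reads may be shared with its close copies, stood at 0.32 in A549 and -2.77 in the H1993 pair as labelled. RDH13, named after its values were seen, was the other gene higher in the H1993 pair as labelled, at 2.55, and BCO2, which cleaves carotenoids, was the 1 gene lower in A549, at -1.98. Between the spheroid libraries 3 were higher in H1993 and 7 lower, 71.4% called beside 37.1% of all genes. SDR16C5 stood at 2.61 there, RDH13 at 1.76, AKR1B10 at -4.94, RDH5 at -3.24 and AKR1C3 at -4.57.

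Oxidation of retinal to retinoic acid is carried out mainly by the ALDH1A enzymes, and 3 of 4 listed genes passed the filter. ALDH1A1 had 118358 reads in A549 spheroids and 168936 in A549 adherent cells, a log2 fold of -0.58 (-0.59 to -0.57) that was not called. It had 4059 in H1993 spheroids and 131387 in the library labelled H1993 adherent, at -4.83 (-4.88 to -4.79), and stood at -4.75 between the spheroid libraries. ALDH1A3 was lower in A549 spheroids, with 153 reads, than in A549 adherent cells, with 838, at -2.50 (-2.77 to -2.27). It stood at -0.11 (-0.48 to 0.26) in the H1993 pair as labelled. ALDH1A2 had 3 reads in A549 spheroids and 4 in A549 adherent cells, and 52 in H1993 spheroids and 22 in the library labelled H1993 adherent. The called gene was thus ALDH1A3 in A549, and ALDH1A1 (lower) and ALDH1A2 (higher, at 1.34) in the H1993 pair as labelled. The share of the 3 called was 33.3% in A549, beside 22.7% of all genes tested. It was 66.7% in the H1993 pair as labelled, beside 35.0%, and 66.7% between the spheroid libraries, beside 37.1%. ALDH1A2 stood at 3.54 (2.61 to 6.56) and ALDH1A3 at -0.33 between the spheroid libraries.

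In the list of retinoic acid clearance 3 of 8 genes passed the filter. The share of these 3 called was 100% in A549, 33.3% in the H1993 pair as labelled and 100% between the spheroid libraries. Over all genes tested it was 22.7%, 35.0% and 37.1%. CYP3A5 and UGT1A1, drug metabolising enzymes that can also act on retinoids, were higher in A549 spheroids at 2.85 and 1.48. CYP2S1, a P450 known to be induced by retinoic acid in skin, was lower at -2.20 (-2.47 to -1.97). In the H1993 pair as labelled CYP2S1 was lower at -4.23 (-5.47 to -3.59), from 11 reads in spheroids and 273 in the adherent library. All 3 were lower in H1993 spheroids than in A549 spheroids, CYP2S1 at -3.56, CYP3A5 at -3.36 and UGT1A1 at -1.43.

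Receptors and partners passed the filter in 10 of 11 cases. In A549 spheroids 0 were higher and 1 lower, NRIP1, a corepressor that is itself induced by retinoic acid, at -1.89 (-2.05 to -1.75). In the H1993 pair as labelled NRIP1 was again lower, at -1.34 (-1.46 to -1.22), and RXRA, the shared partner of the retinoic acid and vitamin D receptors, was higher at 1.68 (1.57 to 1.79). RARA stood at 0.28 in A549 and -0.28 in the H1993 pair as labelled, and RARG at -0.70 in A549 and 0.66 in the H1993 pair as labelled. Of RARA, RARG and RARB, RARB had the largest absolute log2 fold in both pairs. RARB was chosen with these folds known, so nothing is read from this order. The coactivator NCOA3 stood at 0.68 in A549 and -0.87 in the H1993 pair as labelled, neither called. In H1993 spheroids over A549 spheroids RARG was higher at 2.24 and NCOA3 lower at -1.30, while RXRA at 0.96, NRIP1 at 0.89 and RARA at -0.75 were not called.

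Genes known to be induced by retinoic acid passed the filter in 12 of 18 listed symbols. In A549 spheroids 1 was higher and 4 lower, and in the H1993 pair as labelled 1 was higher and 9 lower. The median log2 fold of the 12 was -0.71 in A549 and -1.44 in the H1993 pair as labelled, beside 0.00 over all genes tested in both, and the share called was 41.7% beside 22.7% and 83.3% beside 35.0%. This list shares some genes, STRA6, CRABP2 and NRIP1 among them, with the lists above. RARRES1, named for its response to a retinoid in skin, had 429 reads in A549 spheroids and 642 in A549 adherent cells, and 9 in H1993 spheroids and 692 in the library labelled H1993 adherent. Its log2 fold was -0.64 in A549 and -5.81 (-7.22 to -5.15) in the H1993 pair as labelled. The 1 gene higher in A549 spheroids, named after its values were seen, was PDK4, a kinase that restrains pyruvate oxidation, at 2.29 in A549 and -1.27 in the H1993 pair as labelled. TGM2, a transglutaminase, was lower in A549 spheroids at -1.42. Between the spheroid libraries 1 of the 12 was higher and 4 were lower in H1993, with a median of -0.22. The share called was 41.7%, beside 37.1% of all genes. RARRES1 stood at -5.19 there and PDK4 at -1.98.

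In vitamin D synthesis, transport and binding 5 of 9 genes passed the filter. In A549 spheroids 0 were called, beside 22.7% of all genes tested. DHCR7, which draws the vitamin D precursor into cholesterol synthesis, was the 1 called higher in the H1993 pair as labelled, at 1.62 (1.54 to 1.71). CYP27B1, which makes calcitriol, had 40 reads in A549 spheroids and 26 in A549 adherent cells, and 34 in H1993 spheroids and 20 in the library labelled H1993 adherent. It stood at 0.53 (-0.19 to 1.33) in A549 and at 0.88 (0.11 to 1.82) in the H1993 pair as labelled, neither called. Between the spheroid libraries 0 of the 5 were called, beside 37.1% of all genes, with DHCR7 at 0.80 and CYP27B1 at -0.11.

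Of the other known target genes of the vitamin D receptor 9 of 16 passed the filter. In A549 spheroids 2 were higher and 0 lower, and in the H1993 pair as labelled 2 were higher and 1 lower, 22.2% and 33.3% called beside 22.7% and 35.0% of all genes. Between the spheroid libraries 2 were higher and 5 lower in H1993, 77.8% beside 37.1% of all genes, with a median log2 fold of -1.10. The 2 genes higher in A549 spheroids, named after their values were seen, were SPP1, osteopontin, at 1.65 and CALB1, a calcium binding protein, at 1.45, and the 1 lower in the H1993 pair as labelled was CD14 at -2.62. THBD, thrombomodulin, had 1097 reads in A549 spheroids and 1019 in A549 adherent cells, and 1581 in H1993 spheroids and 68 in the library labelled H1993 adherent. It stood at 0.04 in A549 and 4.68 (4.37 to 5.09) in the H1993 pair as labelled. THBD stood at 0.64 and CD14 at -0.72, neither called, and SPP1 at -2.69 between the spheroid libraries. KLK6, a kallikrein protease, had 0 reads in A549 spheroids and 1 in A549 adherent cells, against 1962 in H1993 spheroids and 113 in the library labelled H1993 adherent, a log2 fold of 4.28. SLC8A1, a sodium and calcium exchanger, stood at -0.84 in A549, -0.78 in the H1993 pair as labelled and 3.11 between the spheroid libraries.

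**Figure D5:**
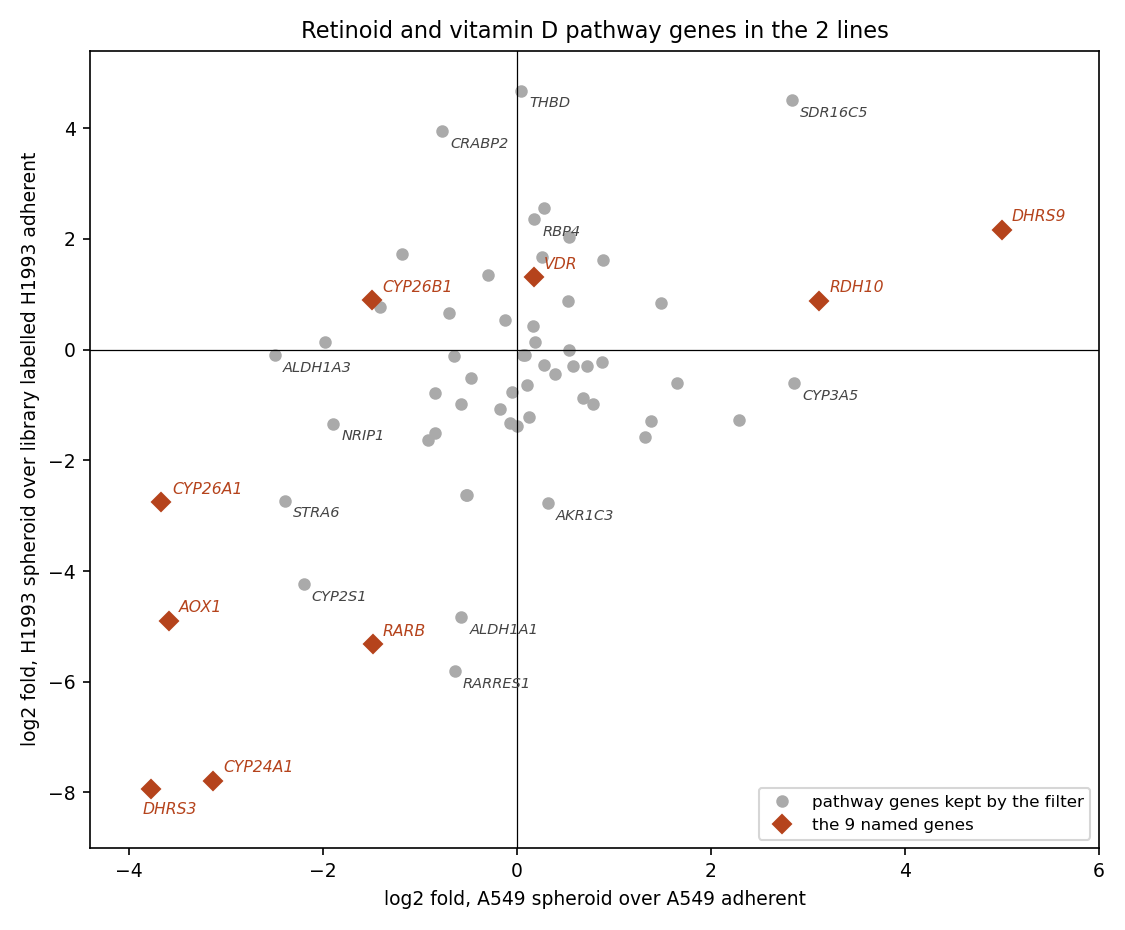
Log2 fold in A549 (x axis) against log2 fold in the H1993 pair as labelled (y axis) for 54 of the pathway genes that passed the filter and had over 3 reads in a library of each line (grey) and for the 9 named genes (diamonds, CYP26A1 at its bound in the H1993 pair). STRA6 and CYP2S1 lie with DHRS3, AOX1, RARB, CYP26A1 and CYP24A1 among those lower in both, and SDR16C5 lies with DHRS9 and RDH10 among those higher in both.

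In the fit over both lines 6 pathway genes passed an adjusted p of 0.05 with DESeq2. They were SDR16C5, higher in spheroids, at 7.8e-05, STRA6 and CYP2S1, lower, at 0.0011 each, KLK6, higher, at 0.017, RARRES1, lower, at 0.022, and ALDH1A1, lower, at 0.030. With edgeR's quasi-likelihood test none of these 6 passed, with adjusted p-values of 0.339 for SDR16C5, 0.312 for STRA6, 0.401 for CYP2S1, 0.515 for KLK6, 0.676 for RARRES1 and 0.708 for ALDH1A1. SDR16C5, STRA6 and CYP2S1 were called in the same direction in both pairs. RARRES1 and ALDH1A1 were lower in both pairs, but at -0.64 and -0.58 in A549 they were not called there. KLK6 was at 0 and 1 reads in A549. DESeq2 called 4.03% of all genes tested. The lists were written with earlier results of these data known, so these p-values are given as a description.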

How the data were processed

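Each of the 4 samples was 1 stranded mRNA library, per the labels' protocols, and the labels gave line and culture. The genome build was hg38, per the submitters' processing notes. No source used here names the aligner, the counting program or the strand setting. The authors deposited whole-number counts of reads per gene over exons, introns and junctions, per the file headers. The deposited TPM is scaled by exon length and sums to 1e+06 in each library. The deposited RPKM was not used in any comparison.

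Genes were kept by edgeR 4.0.16 filterByExpr and scaled by TMM, and log2 folds used a prior count of 2. Intervals are exact Clopper-Pearson intervals at 95%. TPM served for levels between genes and for ratios. The fit over both lines used glmQLFit and glmQLFTest, with DESeq2 1.42.0 as the alternative, both with Benjamini-Hochberg adjustment over all genes tested. With 1 library per group, p-values from that fit treat the lines as replicates of culture.

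The 9 genes and the pathway lists were chosen with earlier results of these data known. All 9 genes are named. Of each list the up to 4 genes called in a pair and largest in log2 fold, with at least 50 reads, are named, plus ALDH1A1, ALDH1A2, ALDH1A3, RARA, RARG, RXRA and CYP27B1. Some list genes are counted in their lists and not reported here by name. Alternatives were other scalings, filters, prior counts, fold limits, unique reads, gene reads and TPM.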

Additional observations from a re-analysis of the deposited data

Results flagged for a closer look

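For 5 genes the A549 pair and the H1993 pair as labelled pointed in opposite directions, counting any of the 9 genes whose intervals excluded no change in both pairs and any list gene called in both. The difference between the pairs was not tested. CYP26B1 had a log2 fold of -1.497 in A549 and 0.90, not called, in the H1993 pair as labelled. Its junction reads, which were few, had intervals that include no change in both pairs. AKR1B10 stood at 1.38 in A549 and -1.29 in the H1993 pair as labelled, FABP5 at -1.18 and 1.74, RDH5 at 1.32 and -1.58, and PDK4 at 2.29 and -1.27. A further 14 list genes, among them CRABP2 at -0.78 and 3.94, had opposite signs with both intervals excluding no change but were not called in both. The values in the H1993 pair all rest on the library labelled H1993 adherent, which stood nearer to A549 adherent.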

How the results depend on the processing

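No fold of the 9 genes changed sign under the alternatives run, and 13 of 432 values moved outside their own counting interval. The 432 include the other fold limits and filters, which by construction leave a fold as it is. DHRS3 in A549 ranged from -4.14 to -3.71 and CYP26A1 in A549, with 1 read in spheroids, from -4.62 to -2.77. Counts of called genes moved by over 1.5 times mainly with the fold limit, by its construction. At a 1.5-fold limit the calls were 27 pathway genes and 5992 of all genes in A549, 8085 of all genes in the H1993 pair as labelled, and 4 of the 9 genes and 3532 of all genes between the adherent libraries. At a 4-fold limit they were 6 pathway genes and 1155 of all genes in A549, and 16 and 2214 in the H1993 pair as labelled. They were 18 and 2334 between the spheroid libraries, and 0 of the 9 genes, 8 pathway genes and 611 of all genes between the adherent libraries. With at least 50 reads in the higher library 1258 genes were called between the adherent libraries. DESeq2 called 591 genes over both lines and edgeR 0, and the cause was not tested. Scaling moved the median of all genes by -0.11 in A549 (library size alone, and TPM), by -0.14 in the H1993 pair as labelled and -0.13 between the spheroid libraries (upper quartile), and by 0.17 between the spheroid libraries (TPM). Genes under about 50 reads, such as CYP26A1, and DHRS3, AOX1 and RARB in H1993 spheroids, are limited by depth. No paired analysis was possible because the labels give no replicate numbers, other than the fit over both lines, in which line is a term and each spheroid library is set against the adherent library of the same label.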
